A study of Rattus norvegicus with 6 samples.

Results

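The 6 genes described here encode a pair of platelet-derived growth factors (PDGF), Pdgfb and Pdgfc, and 4 receptor tyrosine kinases of the PDGF, epidermal growth factor (EGF) and fibroblast growth factor (FGF) families, Pdgfrb, Egfr, Fgfr3 and Fgfr4. They were taken by gene symbol from a deposited table of 2125 genes, in which each symbol matched 1 row, and all 6 passed the filter on low values that left 1851 genes. The lidocaine group consisted of 3 libraries from primary dorsal root ganglion cultures exposed to 5 mM lidocaine hydrochloride, a local anaesthetic acting on sodium channels, for 24 hours. The control group consisted of 3 libraries from untreated cultures. All cultures came from every dorsal root ganglion of Sprague Dawley rats of 120 g and were kept in neurobasal medium with B-27, and total RNA was sequenced. The labels call the cells neurons, whereas of 12 neuronal markers only Elavl4 was in the table, so the label could not be checked against the others. The labels do not say whether replicates were separate cultures or animals, and p-values then measure only the spread between these libraries, which may be technical.

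Receptor tyrosine kinases are membrane proteins that pair when a ligand binds outside the cell, phosphorylate each other inside it, and pass the signal to the RAS and ERK kinases and to PI3-kinase and AKT. PDGF acts mainly on mesenchymal cells: endothelial PDGF-B recruits the pericytes of small vessels, which carry PDGFR-beta, and Schwann cells in culture use PDGF-B as a survival signal. In the authors' deposited table all 6 genes were annotated to the Ras, MAPK, PI3K-Akt and Rap1 signalling pathways and to regulation of the actin cytoskeleton, which were given to 41, 45, 66, 40 and 30 of the listed genes.

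The table holds only genes that the authors had selected as significant on these same libraries, with p-values up to 0.0499 and log2 fold changes at or beyond 1 in size. A fall of at least 2-fold or a rise of at least 2-fold was therefore a condition of being listed. Adjusted p-values over genes selected this way do not keep the usual error rate, and passing is no independent support. The reads recovered in the listed genes numbered 2453051 to 2631083 in the lidocaine libraries and 2710887 to 3592141 in the control libraries, and the reads in other genes are not known. The factors that turn reads into normalised reads put the depth of the lidocaine libraries at 0.992 to 1.06 and that of the control libraries at 0.841 to 1.14, relative to each other.

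Pdgfb (ENSRNOG00000017197), the B chain of PDGF, which as a dimer binds both PDGF receptors, had 295, 257 and 274 normalised reads in the lidocaine libraries, against 806.5, 903 and 841 in the control libraries. The lidocaine libraries lay close together and all far below the control libraries, the lowest of which stood 2.73 times above the highest lidocaine library. The log2 fold change was -1.62 ± 0.09 (SE over 3 and 3 libraries; adjusted p by limma and Benjamini-Hochberg = 5.02e-08), a level 3.08-fold lower with lidocaine. Every SE of a fold change is the moderated one of limma, drawn toward the variance typical of genes of like level. It is not the SE of the gene's own libraries alone. Fold changes are on the scale of log2(normalised reads + 1), where the added 1 makes the change of genes with few reads look smaller. In bulk RNA, fewer cells of a type cannot be told apart from less RNA per cell.

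Pdgfc (ENSRNOG00000010695), the C chain, is secreted in a latent form that proteases such as tissue plasminogen activator release, and its dimer acts mainly through PDGFR-alpha. It had 63.0, 73.0 and 192 normalised reads in the lidocaine libraries, against 288, 320 and 320 in the control libraries. Lidocaine replicate 3 stood apart from the other lidocaine libraries, 1.38 log2 units above the nearer of them, but still below every control library. Its 191 recovered reads have an exact Poisson 95% interval of 165 to 220, and the 63 and 78 reads of replicates 1 and 2 have intervals of 48.4 to 80.6 and 61.7 to 97.3, which cover counting error only. The log2 fold change was -1.67 ± 0.35 (SE over 3 and 3 libraries; adjusted p by limma and Benjamini-Hochberg = 0.00115). Without lidocaine replicate 3 it was -2.17 (limma, adjusted p = 1.92e-06). The SD of the log2 values of Pdgfc was 0.86 in the lidocaine libraries and 0.09 in the control libraries. The moderated SE understates this spread, and without the variance trend the adjusted p was 0.0118 (limma, all libraries).

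The windows around the annotated transcription starts of both ligand genes are shown because, with the deposited scaling, they had the largest falls of the 6. They run from 250 bases before to 50 bases after the start (RefSeq, rat build GRCr8, not the build of the deposited tables) and are written in the direction of the gene. Capitals mark matches to the motifs, which were searched on both strands. The GC box was read as GGGCGG and the CCAAT box by its name. The TATA box was read as TATAAA, while the AP-1 site was TGANTCA. The E-box was CACGTG, and the core of ETS sites was CCGGAA. No match overlapped another in the windows shown.
Pdgfb promoter, chr7:113438294-113438593, minus strand: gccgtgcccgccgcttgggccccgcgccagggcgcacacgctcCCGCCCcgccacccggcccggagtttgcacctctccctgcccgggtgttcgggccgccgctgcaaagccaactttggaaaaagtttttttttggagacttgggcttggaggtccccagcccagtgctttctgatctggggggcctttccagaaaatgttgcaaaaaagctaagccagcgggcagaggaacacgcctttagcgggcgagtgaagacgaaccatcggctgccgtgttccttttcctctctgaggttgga
Pdgfc promoter, chr2:168614918-168615217, plus strand: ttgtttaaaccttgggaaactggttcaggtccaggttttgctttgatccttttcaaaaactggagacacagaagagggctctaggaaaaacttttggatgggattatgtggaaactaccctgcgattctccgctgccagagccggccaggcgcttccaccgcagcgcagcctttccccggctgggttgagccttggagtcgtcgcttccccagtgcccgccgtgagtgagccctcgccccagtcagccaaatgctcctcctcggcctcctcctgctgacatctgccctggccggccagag
The Pdgfb window holds 1 GC box, on the opposite strand, with its first base at position -207 from the start. The Pdgfc window holds none of the 6 motifs. However, its 50 bases after the annotated start begin with ATG and hold no stop codon in that frame. That start may therefore be the start of the coding sequence, so the lack of matches says nothing about a Pdgfc promoter. Of all 33469 rat windows of this length, 33.1% hold a GC box, 37.5% CCAAT, 14.2% the TATA box, 7.33% the AP-1 site, 6.42% the E-box and 15% the ETS core. GC content was 62.0% in the Pdgfb window and 58.0% in the Pdgfc window, against a median of 51.7% over all windows. A match describes letters in the window and not a bound site.

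Pdgfrb (ENSRNOG00000018461), the beta receptor of PDGF and a marker of pericytes and other mural cells, was the most abundant of the 6 genes. It had 1959, 2137 and 1933 normalised reads in the lidocaine libraries, against 3912, 4136 and 4439.9 in the control libraries. The groups did not overlap, and the spread within each was small. The log2 fold change was -1.05 ± 0.06 (SE over 3 and 3 libraries; adjusted p by limma and Benjamini-Hochberg = 1.09e-07), the smallest fall of the 6 and close to the limit of 1 that the authors' selection had set.

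Egfr (ENSRNOG00000004332), the receptor of EGF, TGF-alpha and epiregulin, had 378, 356.5 and 307 normalised reads in the lidocaine libraries, against 731.5, 917.5 and 869 in the control libraries. Every lidocaine library lay below every control library, and control replicate 1 was the lowest of its group. The log2 fold change was -1.27 ± 0.11 (SE over 3 and 3 libraries; adjusted p by limma and Benjamini-Hochberg = 2.26e-06), 2.41-fold lower.

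Fgfr3 (ENSRNOG00000016818) encodes an FGF receptor found on glia and on many developing cells. It had 46.0, 43.0 and 50.2 normalised reads in the lidocaine libraries, against 105.5, 121 and 98.2 in the control libraries. The groups were well apart, and the fall of 1.20 on the log2 scale (SE 0.18 over 3 and 3 libraries; adjusted p by limma and Benjamini-Hochberg = 0.00014) corresponded to a 2.30-fold lower level. Fgfr4 (ENSRNOG00000016763), the FGF receptor best known from the liver, where it works with the coreceptor beta-Klotho, had 9, 14.0 and 18.1 normalised reads in the lidocaine libraries, against 40.1, 40.3 and 39.1 in the control libraries. The control libraries were almost identical, whereas the highest lidocaine library had 2.01 times the reads of the lowest. The Fgfr4 log2 fold change was -1.52 ± 0.33 (SE over 3 and 3 libraries; adjusted p by limma and Benjamini-Hochberg = 0.00146). It rests on 9, 15 and 18 recovered reads with lidocaine, with exact Poisson 95% intervals of 4.12 to 17.1, 8.40 to 24.7 and 10.7 to 28.4. The control libraries had 46, 34 and 39 reads, with intervals of 33.7 to 61.4, 23.5 to 47.5 and 27.7 to 53.3. On the scale of normalised reads the upper bounds were 17.1, 23.1 and 28.5 with lidocaine and the lower bounds 29.4, 27.9 and 27.8 in control, so that replicates 1 and 2 of lidocaine lay below all control intervals and replicate 3 did not.

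The start windows of the FGF receptor genes are shown because each holds 3 GC boxes, whereas the Pdgfb window holds 1. The share of all windows that hold 3 was not counted. The same source, build and motifs apply.
Fgfr3 promoter, chr14:81227160-81227459, minus strand: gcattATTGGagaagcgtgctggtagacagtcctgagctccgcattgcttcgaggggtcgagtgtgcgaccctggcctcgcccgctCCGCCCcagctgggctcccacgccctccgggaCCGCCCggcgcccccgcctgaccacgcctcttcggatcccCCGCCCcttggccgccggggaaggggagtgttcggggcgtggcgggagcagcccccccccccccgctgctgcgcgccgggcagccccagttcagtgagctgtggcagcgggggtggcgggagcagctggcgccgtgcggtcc
Fgfr4 promoter, chr17:9481340-9481639, minus strand: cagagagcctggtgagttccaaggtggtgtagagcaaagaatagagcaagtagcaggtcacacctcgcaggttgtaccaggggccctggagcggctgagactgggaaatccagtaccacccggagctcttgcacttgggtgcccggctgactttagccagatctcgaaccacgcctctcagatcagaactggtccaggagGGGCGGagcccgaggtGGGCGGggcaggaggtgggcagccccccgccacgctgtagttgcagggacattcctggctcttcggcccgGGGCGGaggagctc
In the Fgfr3 window the GC boxes start at positions -164, -132 and -92 and a CCAAT box at -245, all read on the opposite strand. In the Fgfr4 window the GC boxes lie on the strand of the gene and start at -50, -34 and 37. The Egfr window, at 64.3% GC, holds a GC box at -51 and an ETS core at -162. GC content was 74.7% for Fgfr3 and 63.3% for Fgfr4, against the median of 51.7% over all windows. No window was available for Pdgfrb.

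**Figure D1:**
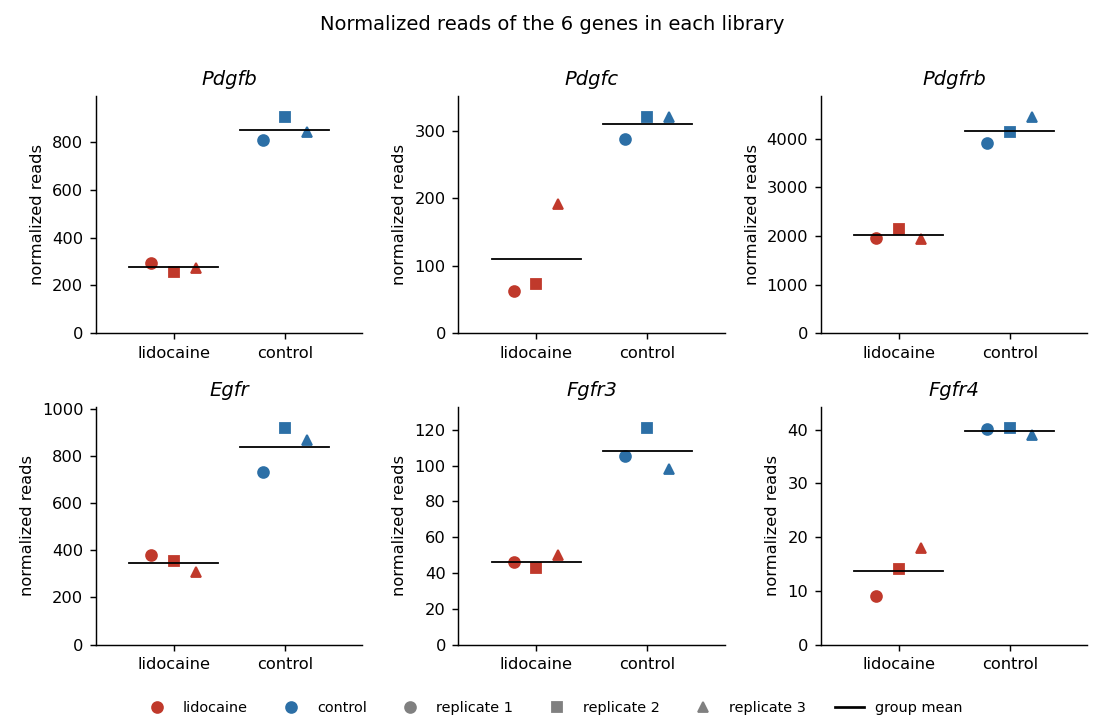
Normalised reads (vertical axis, starting at 0) of each of the 6 genes in the 3 lidocaine libraries (left) and the 3 control libraries (right), with symbols for the replicate number and a line at the group mean. In every panel the lidocaine libraries lie below the control libraries, and Pdgfc of lidocaine replicate 3, at 192, stands apart from 63.0 and 73.0 in replicates 1 and 2.

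All 6 genes passed the threshold of an adjusted p of 0.05 and all were lower with lidocaine (limma, Benjamini-Hochberg over the 1851 genes kept). Of all genes kept, 99.5% passed in either direction and 68.6% passed as lower, so passing is the rule in this table. The lidocaine libraries all lay below the control libraries in each of the 6 genes, as they did in 67.6% of the genes kept. The median log2 fold change was -1.40 over the 6 genes and -1.25 over all genes kept. Among genes that passed as lower the median was -1.59, with quartiles of -2.23 and -1.22. By the share of genes kept with a lower fold change, Pdgfc stood at 31.3%, Pdgfb at 33.0%, Fgfr4 at 36.2%, Egfr at 48.5%, Fgfr3 at 52.9% and Pdgfrb at 64.5%. In the authors' deposited table the p-values of the 6 genes ranged between 3.92e-85 for Pdgfrb and 0.00304 for Pdgfc.

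The direction depended on the scaling between libraries. TMM and median-of-ratios rescaling, both computed on the listed genes alone, raised the log2 fold changes of all genes kept by a median of 1.26 and 1.17. After TMM, Pdgfb remained lower at -0.35 (limma, Benjamini-Hochberg adjusted p = 0.0049), while Pdgfrb turned higher at 0.22 (adjusted p = 0.00543). The other 4 genes did not pass, with Pdgfc at -0.41, Fgfr4 at -0.31, Egfr at 0.00 and Fgfr3 at 0.06. That is 1 of the 6 genes lower, against 26.5% of the genes kept, and 1 higher, against 34.1%. After median-of-ratios rescaling only Pdgfb passed as lower, at -0.44 (limma, Benjamini-Hochberg adjusted p = 0.0013), against 29.7% of the genes kept, and Pdgfrb stood at 0.13 (adjusted p = 0.0689). Both methods set the typical listed gene to no change, and most listed genes were lower, so these values describe each gene relative to the other listed genes. Because both moved fold changes upward, a gene that rose with the deposited scaling could not lose its rise under them. That a rise remained is therefore no support for it. The authors' FPKM values, which also relate reads to gene length, gave ratios of geometric means, with no pseudocount, of 3.04-fold for Pdgfb, 3.17-fold for Pdgfc, 2.04-fold for Pdgfrb, 2.38-fold for Egfr, 2.32-fold for Fgfr3 and 3.08-fold for Fgfr4, all lower with lidocaine. On the log2(FPKM + 0.1) scale, where the pseudocount is large beside the level of the FGF receptors, limma gave -0.97 for Fgfr3 and -0.92 for Fgfr4.

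**Figure D2:**
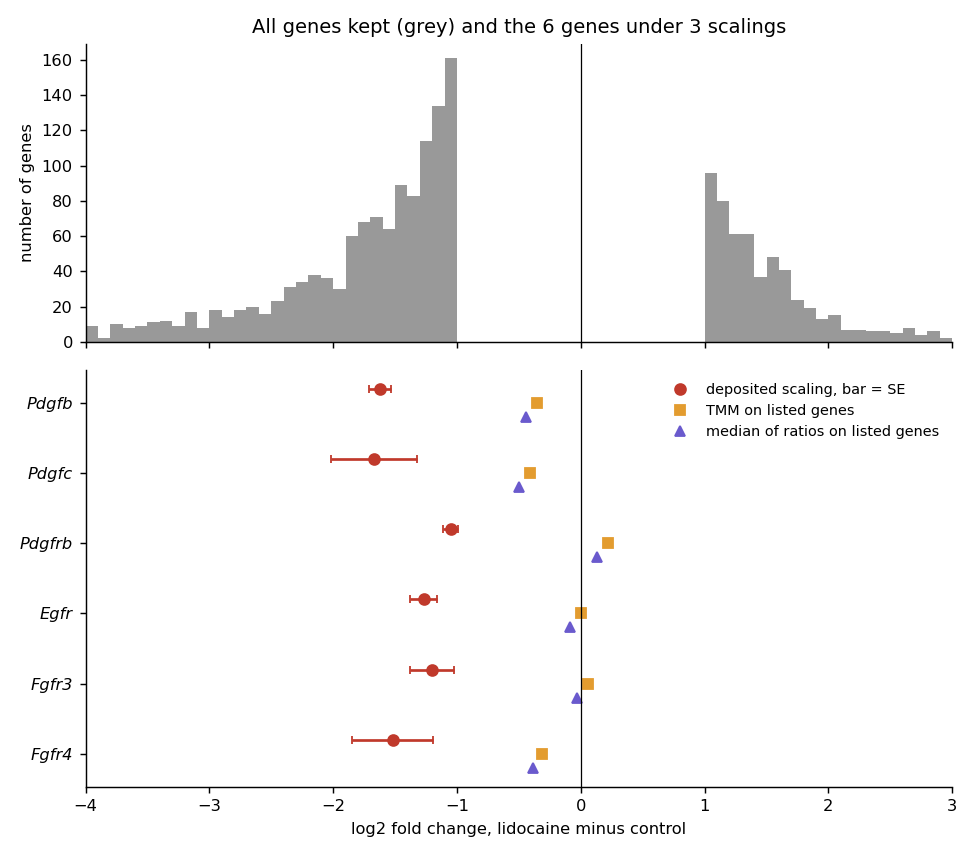
The upper panel counts all genes kept by log2 fold change (lidocaine minus control), with no gene between -1 and 1 because of the authors' selection; genes beyond -4 and 3 lie outside the axis. The lower panel shows the 6 genes under the deposited scaling (circles, bars are SE), TMM (squares) and median of ratios (triangles): all circles lie between -1.67 and -1.05, whereas Pdgfrb lies above 0 under both rescalings, at 0.22 and 0.13.

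Ratios between genes of the same library do not depend on how libraries are scaled, and were compared for all 15 pairs of the 6 genes. In these libraries Pdgfb stood lower relative to its receptor with lidocaine, without passing the threshold. Log2(Pdgfb/Pdgfrb) was -2.73, -3.05 and -2.81 in the lidocaine libraries, against -2.28, -2.19 and -2.40 in the control libraries. The groups did not overlap, and the difference was -0.57 (exact permutation test, two-sided, p = 0.1, adjusted p = 0.5 over 15 pairs), where 0.1 is the smallest p that 3 against 3 libraries can give. Pdgfb also stood lower relative to Egfr, by -0.35, and relative to Fgfr3, by -0.42, with no overlap of the groups and the same exact p-values. Without any difference, the groups of a pair would fail to overlap with a probability of 0.1. The 3 pairs share Pdgfb and are not independent of each other. In the other 12 pairs the groups overlapped, and the p-values of the exact permutation test ranged upward from 0.2. No pair could therefore pass the threshold in this design.

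Between the receptors the groups overlapped in every pair. Log2(Pdgfrb/Egfr) averaged 2.53 ± 0.15 with lidocaine and 2.31 ± 0.13 in control (SD, n = 3 each), and log2(Egfr/Fgfr3) averaged 2.87 ± 0.25 with lidocaine and 2.94 ± 0.18 in control, differences of 0.22 and -0.07. The widest difference between receptors was 0.47, for log2(Pdgfrb/Fgfr4), which was 0.24 with a pseudocount of 5, -0.10 with log2(FPKM + 0.1) and 0.60 with FPKM and no pseudocount. With this few libraries overlap does not show that receptors changed alike. Pdgfc relative to Pdgfrb was -4.94, -4.85 and -3.33 with lidocaine, against -3.76, -3.69 and -3.79 in control. Lidocaine replicate 3 lay above all control libraries in this ratio and replicates 1 and 2 lay below them. Without lidocaine replicate 3 the difference widened to -1.15, compared with -0.63 in all libraries.

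**Figure D3:**
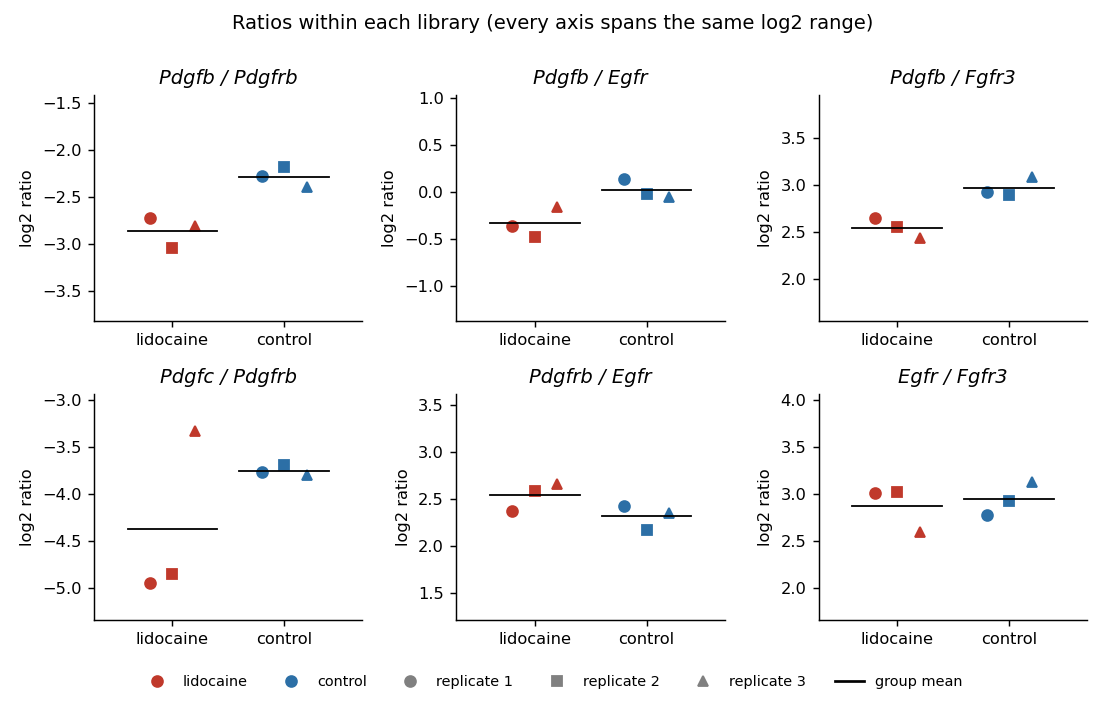
Log2 ratios of normalised reads (+ 1) of gene pairs within each library, lidocaine left and control right, with symbols for the replicate number and a line at the group mean; every axis spans the same number of log2 units. The groups are apart for Pdgfb over Pdgfrb, Egfr and Fgfr3, and lidocaine replicate 3 is apart in Pdgfc over Pdgfrb, at -3.33.

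Levels per gene length, in FPKM, ordered the genes the same way in both groups. Pdgfrb averaged 7.35 ± 0.426 FPKM with lidocaine and 15 ± 0.994 FPKM in control (SD, n = 3 each). Pdgfb followed with 2.62 ± 0.181 and 7.96 ± 0.478 FPKM, then Egfr with 1.74 ± 0.188 and 4.15 ± 0.49 FPKM, each with lidocaine and in control (SD, n = 3 each). Pdgfc averaged 0.831 ± 0.54 FPKM with lidocaine and 2.32 ± 0.148 FPKM in control. Fgfr3 averaged 0.265 ± 0.0222 FPKM with lidocaine and 0.617 ± 0.0667 FPKM in control, and Fgfr4 0.0825 ± 0.0301 FPKM with lidocaine and 0.242 ± 0.0035 FPKM in control. Neighbours in this order did not overlap between libraries of the same group, and the narrowest gap was that of Egfr at 1.54 FPKM and Pdgfc at 1.45 FPKM, both in lidocaine replicate 3.

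**Figure D4:**
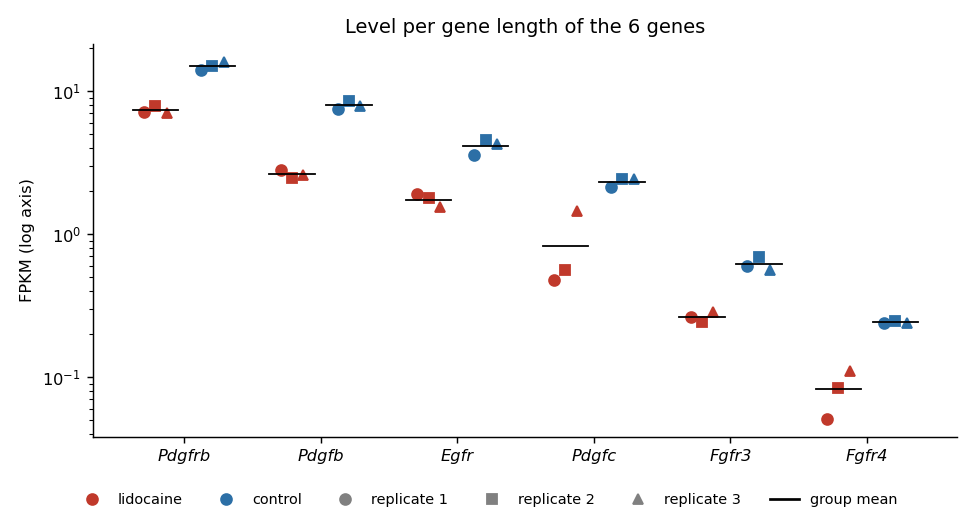
FPKM (log axis) of the 6 genes in each library, ordered by the control mean, with lidocaine left of control for each gene and a line at the group mean. Pdgfrb is highest, at 7.35 FPKM with lidocaine and 15 FPKM in control, and Fgfr4 lowest, at 0.0825 FPKM with lidocaine and 0.242 FPKM in control.

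Around these genes, 11 lists of ligands, receptors, adaptors, inhibitors and targets of receptor tyrosine kinases held 215 genes, of which 41 were listed. With the deposited scaling 18 of the 41 rose and 23 fell (limma, Benjamini-Hochberg adjusted p below the threshold in all 41), and of all genes kept 99.5% passed and 68.6% passed as lower. After TMM 21 of the 41 passed as higher, 9 passed as lower and 11 did not pass, beside 34.1% higher and 26.5% lower among all genes kept. After the median of ratios 19 passed as higher, 10 as lower and 12 did not pass, beside 32% higher and 29.7% lower among all genes kept. Of the PDGF list of 7 genes, Pdgfb, Pdgfc and Pdgfrb were listed, and the tables give no value for Pdgfa, Pdgfd or Pdgfra. Egfr was the listed member of 4 EGF family receptors, without Erbb2, Erbb3 or Erbb4. Of 10 FGF receptor and coreceptor genes Fgfr3, Fgfr4 and Fgfrl1 were listed, without Fgfr1 or Fgfr2.

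The ligands and partners of Egfr and the FGF receptors went in different directions. Of 11 EGF family ligands a pair was listed. Tgfa, the EGFR ligand TGF-alpha, fell to 844 ± 31.2 normalised reads with lidocaine, against 2730.1 ± 119 in control (SD, n = 3 each), and stayed lower under both rescalings. Relative to Egfr in the same library, log2(Tgfa/Egfr) averaged 1.28 ± 0.11 with lidocaine and 1.71 ± 0.16 in control. Ereg, epiregulin, rose to 17.5 ± 6.67 normalised reads with lidocaine, against 4.89 ± 1.28 in control (limma, Benjamini-Hochberg adjusted p = 0.00729). This rise rests on few reads, and Ereg passed the filter on low values only through the lidocaine libraries. Fgf21, an endocrine FGF induced by metabolic stress, was the listed gene of 22 FGF ligands and rose to 134 ± 8.06 normalised reads with lidocaine, against 49.1 ± 11.1 in control (SD, n = 3 each).

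Fgfrl1, an FGF-binding receptor that lacks the kinase domain, was higher with lidocaine, whereas the listed kinases of its family, Fgfr3 and Fgfr4, were lower with the deposited scaling and did not pass after either rescaling. It rose to 1365 ± 99.3 normalised reads with lidocaine, against 592.5 ± 30.2 in control (SD, n = 3 each; limma, Benjamini-Hochberg adjusted p = 1.78e-07). Under the rescalings, whose upward shift could not remove a rise, it stood at 2.47 and 2.38. Log2(Fgfrl1/Fgfr3) was 4.88, 5.05 and 4.62 in the lidocaine libraries, against 2.40, 2.36 and 2.58 in the control libraries, and log2(Fgfrl1/Fgfr4) averaged 6.58 ± 0.53 with lidocaine and 3.86 ± 0.07 in control (SD, n = 3 each). The ratios with genes outside the 6 were chosen after the values were seen and were not tested.

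Of 44 other receptor tyrosine kinases 9 were listed, of which 7 fell and 2 rose with the deposited scaling. Of all genes kept, 68.6% passed as lower. Each fold change of the 9 had the same sign under both rescalings, although Tek did not pass after TMM, at -0.22. For the 2 that rose, the upward shift of the rescalings fixed this in advance. Flt1 and Kdr, receptors of VEGF, fell 4.03-fold and 7.87-fold, and Tie1, an endothelial receptor related to the angiopoietin receptor, fell 3.27-fold. Met, the receptor of hepatocyte growth factor, rose to 4512 ± 400.1 normalised reads with lidocaine, against 1510.4 ± 27.7 in control (SD, n = 3 each), and Mst1r, its relative, named after its value was seen, rose 2.22-fold. Log2(Met/Egfr) was 3.70, 3.64 and 3.75 with lidocaine, against 1.06, 0.74 and 0.77 in control. The median log2 fold change of these 9 kinases was -1.82, against -1.25 over all genes kept.

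Of 22 ligands of other receptor tyrosine kinases 8 were listed, of which 5 rose and 3 fell, whereas 68.6% of all genes kept passed as lower. Gdnf and Bdnf, survival factors of neurons, rose 3.93-fold and 2.69-fold, and Vegfa and Vegfb 2.60-fold and 2.62-fold. All 5 that rose passed as higher under both rescalings, which the upward shift of the rescalings fixed in advance. Of the 3 that fell, Csf1 passed as higher under TMM, at 0.26, and the median of ratios, at 0.17. Artn passed as higher under TMM, at 0.27, and did not pass under the median of ratios, at 0.18. Vegfd did not pass under either, at -0.59 and -0.68, and these 3 are named after their values were seen.

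Inside the cell, several genes that ERK signalling is known to induce rose while the 6 genes were lower with the deposited scaling. Under both rescalings only Pdgfb of the 6 genes passed as lower. Of 17 ERK target genes 4 were listed. Etv5, an ETS factor induced by FGF signalling, rose to 12446 ± 287 normalised reads with lidocaine, against 2585 ± 37.5 in control (SD, n = 3 each), a rise of 2.27 on the log2 scale (SE 0.04; adjusted p by limma and Benjamini-Hochberg = 5.33e-11). Fosl1, a Fos-family factor, rose 3.02-fold and Ier3, an early response gene, 2.46-fold, whereas Egr2, a zinc finger factor of myelinating Schwann cells, fell 2.68-fold. The signs were the same under both rescalings, although Egr2 then did not pass. For the genes that rose, the upward shift of the rescalings fixed this in advance.

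Of 21 feedback inhibitors 4 were listed. Spry2, which restrains signalling from receptor tyrosine kinases to RAS, rose to 5288 ± 73.9 normalised reads with lidocaine, against 1820 ± 147 in control (SD, n = 3 each). Dusp5 and Dusp4, nuclear phosphatases that switch off ERK, rose 3.46-fold and 3.00-fold. These 3 rises could not be lost under the rescalings, which move fold changes upward. Lrig1, a membrane protein that promotes degradation of EGFR family receptors, fell 2.23-fold but stood above 0 without passing under TMM, at 0.12, and the median of ratios, at 0.03.

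Of 32 adaptors and RAS activators 3 were listed. Gab1, a docking protein, and Pik3r1, the regulatory subunit of PI3-kinase, both fell 2.25-fold but stood above 0 without passing under TMM, at 0.11 each, and the median of ratios, at 0.02 each, while Shc3, an adaptor of neurons, rose 2.84-fold. Of 25 genes of ligand processing and heparan sulfate, Plau, the urokinase protease, rose 2.07-fold, Sulf2, which trims the heparan sulfate that FGF needs for binding its receptors, fell 2.50-fold, and Nrp1, a coreceptor of VEGF, fell 2.70-fold. Shc3 and Plau passed as higher and Nrp1 as lower under both rescalings, whereas Sulf2 did not pass under either, at -0.05 and -0.14. For Shc3 and Plau the upward shift of the rescalings fixed this in advance.

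**Figure D5:**
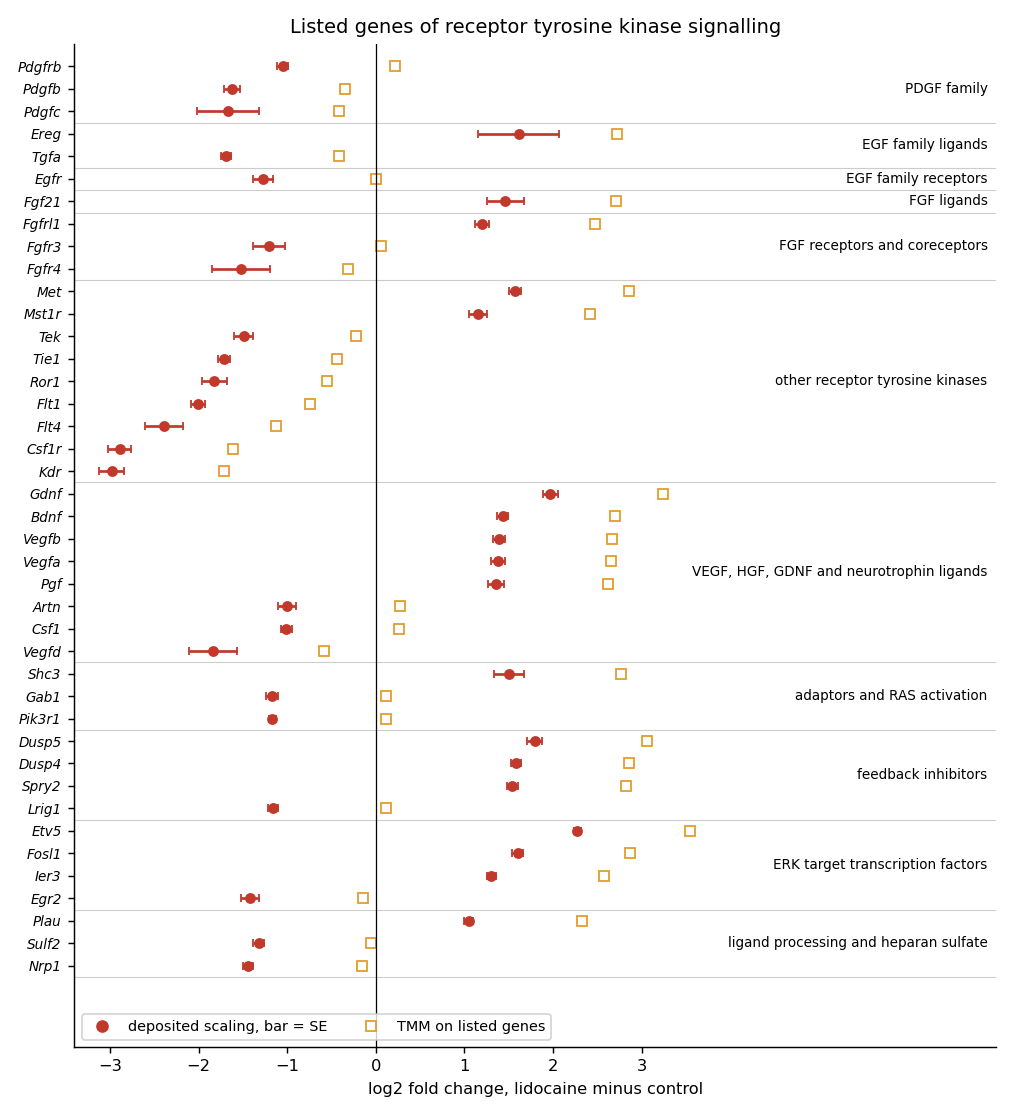
Log2 fold change (lidocaine minus control, horizontal axis) of the 41 listed genes of receptor tyrosine kinase signalling, grouped by list, with the deposited scaling (filled circles, bars are SE) and after TMM on the listed genes (open squares). Etv5 is highest, at 2.27 with the deposited scaling, Kdr lowest, at -2.98, and the squares of Pdgfrb, Fgfr3, Csf1, Artn, Gab1, Pik3r1 and Lrig1 lie above 0, and that of Egfr at 0.00, while their circles lie below.

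With the deposited scaling all 31 listed cell type markers, Pdgfrb included, were lower, as were the 6 genes, beside 68.6% of all genes kept. Listing required a change of at least 2-fold, and markers that are not listed have no value here. After TMM 26 of the 31 still passed as lower, 2 passed as higher and 3 did not pass (limma, Benjamini-Hochberg). Of all genes kept, 26.5% then passed as lower and 34.1% as higher, and of the 6 genes only Pdgfb passed as lower. After the median of ratios 28 of the 31 passed as lower, 1 passed as higher and 2 did not pass, beside 29.7% lower and 32% higher among all genes kept. Of 10 mural cell markers 7 were listed and all 7 fell, including Pdgfrb itself, with a median log2 fold change of -1.78. Their summed level was 3612 to 4273 normalised reads in the lidocaine libraries and 12613 to 13394 in the control libraries. Pdgfrb, averaging 2009.6 with lidocaine and 4162.8 in control, is a large part of these sums. Under both rescalings Pdgfrb stood above 0, at 0.22 and 0.13, and the other 6 mural markers below it, of which Rgs5 did not pass. All 6 listed of 8 endothelial markers fell, with sums of 1774 to 1873 with lidocaine and 6456 to 6921 in control, and Cdh5 and Tek did not pass after TMM. All 4 listed of 8 fibroblast markers fell, with sums of 22363 to 23061 with lidocaine and 92691 to 100753 in control. Most of these sums came from Col1a1 and Col3a1, which averaged 17254.5 and 4942.5 with lidocaine. The 2 listed of 8 Schwann cell markers, Mbp and Prx, summed to 6934 to 7240.0 with lidocaine and 27926 to 28876 in control. The 2 listed of 6 satellite glia markers summed to 335 to 399 with lidocaine and 1200 to 1377 in control, and the 9 listed of 10 macrophage markers to 568 to 630.2 with lidocaine and 5925 to 6436 in control. Elavl4, the listed neuronal marker, had 1199 to 1366 normalised reads with lidocaine and 2421 to 2646 in control, a fall of 1.00 on the log2 scale. It passed as higher after TMM, at 0.27, and the median of ratios, at 0.18. No listed marker was at 0 in every lidocaine library. However, Cd163, Cx3cr1 and Acta2 averaged 2.56, 3.28 and 5.68 normalised reads with lidocaine. They passed the filter at a mean of 10 only through the control libraries. Their place among the markers that fell is therefore no support for a fall. The part of these cell types in the levels of the 6 genes was not tested.

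The genes with profiles most like those of the 6 were sought among 1001 genes with a plain symbol and a mean of at least 100 normalised reads, by the root mean square difference of centred log2 values over the 6 libraries. Nearest to Pdgfb were Podxl (0.053), Col15a1 (0.053) and Tspan18 (0.060), and nearest to Pdgfrb were Magi1 (0.048), Afap1l2 (0.050) and Pear1 (0.051). Entpd1 (0.063), Mmp28 (0.067) and Ptprt (0.072) were nearest to Egfr, and Nt5e (0.059), Cyba (0.065) and Prkar2b (0.075) to Fgfr3. Rbfox1 was nearest to Fgfr4 (0.072), with 1900.0, 2778 and 3087 normalised reads in the lidocaine libraries and 7200, 7243 and 7065 in the control libraries, followed by Vstm4 (0.129) and Fibin (0.139). Pdgfc had no close neighbour: Klhl6 (0.279), Pla1a (0.303) and Clec14a (0.314) were nearest. Lidocaine replicate 3 was the highest lidocaine library in all 3 of them, which the search itself favours because it matches every library of Pdgfc. With 6 libraries in 2 groups these distances mostly reflect the size of the difference between the groups.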

How the data were processed

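Groups came from the treatment labels. The submitters' processing notes name Bowtie 0.12.2, DESeq2 and, as the rat genome, rn6 (Rnor_6.0). How each was used, the read counting and the annotation are not stated by the notes. The authors deposited normalised expression as log2 of the normalised read number plus 1, with their own log2 fold changes and p-values, and FPKM values of the same genes per the file headers. All 12750 normalised values were whole multiples of a factor per library (tolerance 0.02 reads), which gave the reads. The deposited log2 values were compared by limma 3.58.1 (R 4.3.3; two-sided, with the variance trended on the mean and without a replicate block) over the 1851 genes averaging 10 or more normalised reads (274 left out), with Benjamini-Hochberg adjustment and a threshold of 0.05. The step was tested on simulated data. The 6 genes, the lists and the tests were chosen with earlier results of these data known. From each list up to 4 genes of lowest adjusted p are named, and for each of the 6 genes the 3 with the nearest profile. Alternatives changed the pseudocount, filter, scaling, unit, model, adjustment, block and libraries. The authors' group values were not used.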

Additional observations from a re-analysis of the deposited data

How the results depend on the processing

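The calls of the 6 genes held, in direction and side of the threshold, with pseudocounts of 0.5 and 5, without the filter, without the variance trend, with log2(FPKM + 0.1), with limma-voom on the recovered reads (1833 of all genes kept passing), with p-values adjusted over the 47357 genes of a RefSeq table (adjusted p at most 0.0372, for Fgfr4) and with each library left out. The authors' selection on these same libraries nearly fixed this outcome in advance, so it is no support for the 6 genes. A filter at a mean of 100 kept 1068 genes, all of which passed, fewer by construction, and left out Fgfr3 and Fgfr4. All genes kept gave 1841 calls, and 1122 and 1142 after TMM and median-of-ratios rescaling, where 2 and 1 of the 6 genes passed. Under TMM only Pdgfrb passed in the other direction, at 0.22. Egfr at 0.00 and Fgfr3 at 0.06 did not pass (limma, Benjamini-Hochberg adjusted p = 0.987 and 0.84). Under the median of ratios Pdgfrb changed sign, at 0.13, without passing. Leaving out a library gave 1767 to 1806 calls, 6 of 6 genes each time, and 3 to 10 of 15 ratio pairs without overlap, 10 without lidocaine replicate 3 and 5 without lidocaine replicate 1 or control replicate 3. With fewer libraries groups overlap less often by construction, so these counts are not comparable with the 3 pairs in all libraries. With log2(FPKM + 0.1) 7 ratio differences moved by more than the spread between replicates, all involving Fgfr3 or Fgfr4. Of these, 4 changed sign: Pdgfrb over Fgfr3 to -0.05, Pdgfrb over Fgfr4 to -0.10, Egfr over Fgfr4 to -0.28 and Fgfr3 over Fgfr4 to -0.05. With FPKM and no pseudocount, an alternative chosen after seeing the data, none of the 15 moved by more than that spread, and these 4 were 0.19, 0.60, 0.37 and 0.41. Pdgfb over Pdgfc went to -0.05 with the pseudocount and 0.06 without it, and Pdgfb over Fgfr4 to 0.02 without it. Of the 41 genes of the lists, 30 passed after TMM and 29 after the median of ratios. Log2 fold changes without a library ranged from -2.17 to -1.38 for Pdgfc and from -1.73 to -1.27 for Fgfr4. With the replicate block 1842 genes passed and all 6 calls held. Same-numbered libraries did not deviate together, with correlations across genes of -0.028, 0.009 and 0.058, and not every library correlated best with its own number. Few reads limit Fgfr4 and, in the lists, Ereg.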

Other observations

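Among the 1068 genes with a mean of at least 100 normalised reads, the gap between the highest lidocaine library and the next had a median of 0.09 log2 units. It was at least as wide as the 1.38 of Pdgfc in 3 genes, Pdgfc included. The others, named after their values were seen, were Tagln and Acta2, both genes of contractile smooth muscle cells. Tagln had 472, 88.9 and 73.3 normalised reads in the lidocaine libraries, against 3071.6, 2778.5 and 2150.3 in the control libraries, so that lidocaine replicate 1 was the high one. Acta2 had 4, 0 and 13 in the lidocaine libraries, against 212, 301 and 287 in the control libraries. It reached a mean of 100 only through the control libraries. Its gap rests on few reads and is not comparable with that of Pdgfc. Lidocaine replicate 3 was the highest lidocaine library in 364 of the 1068 genes, replicate 1 in 384 and replicate 2 in 320.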
